A study of Jatropha curcas with 31 samples.

Results

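Luminal-binding proteins (BiP) are the HSP70 chaperones of the endoplasmic reticulum (ER). They bind nascent polypeptides that enter the ER lumen, keep them from aggregating, and work with DnaJ co-chaperones, calreticulin and protein disulfide isomerases in folding secreted proteins. In seeds this machinery handles storage proteins on their way to the vacuole, and BiP genes are a common marker of the unfolded protein response. Of the 19838 contigs on a custom Jatropha curcas array, 2 with this annotation are described here, contig02714 (luminal-binding protein 5-like) and contig00639 (luminal binding protein). They were chosen by contig number, with all of their 11 probes among the 57842 of the array. Annotation was read for 1482 contigs, so other contigs of the array may carry the same one. The annotated transcript of contig00639 belongs to LOC105645631, and contig02714 was not matched to a locus.

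The study used 31 one-colour arrays, of which 10 carried leaf RNA (5 from leaves labelled toxic, 5 from leaves labelled non-toxic) and 21 carried seed RNA. The seeds came from a single open-pollinated plant at 6 stages that were told apart by fruit colour, namely stage I green-white (3 arrays), stage II green-half (4), stage III green-black (3), stage IV yellow (3), stage V brown (4) and stage VI dry (4). No group carried an added transgene or treatment, and the stages stand for maturation from young green to dry fruit without a stated age. Since all seed arrays share 1 plant, p-values measure the spread between samples of that plant. Some titles of brown and dry arrays carry a year or the word klein, which no title of stages I to IV does. What these marks stand for is not stated. They cannot be told apart from stage where brown or dry seeds are set against earlier stages. The question was how the 2 contigs ran through seed maturation and whether they followed the same course.

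On each array 47.9% to 69.6% of the spots were well above background. The arrays lay on 4 slides, and those on slide 4 stood apart. Arrays of the same group correlated with a median r of 0.928 where both lay on slides 1 to 3, and with 0.857 where 1 of them lay on slide 4. Slide 4, scanned on another day, held replicate 4 of stages II, V and VI and replicates 4 and 5 of both leaf groups, so results are given with and without it where it matters. Of the 6 seed markers (storage proteins and oleosins), 5 or 6 were lower in leaf than in each seed stage, and of the 3 leaf markers (photosystem II and rubisco contigs) 1 or 2 were higher in leaf. The PsbP domain contig did not separate the tissues (leaf minus green-white seeds 0.32, limma, adjusted p = 0.77). Total RNA of whole tissue was measured, so that fewer cells of a type and less RNA per cell cannot be told apart.

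Each probe is 60 bases long and is named by its position on the contig. Contig02714 (1331 bases) has sense probes at 0, 500 and 1000 and antisense probes at 250, 750 and 1250, and contig00639 (1201 bases) has sense probes at 0, 500 and 1000 and antisense probes at 250 and 750. Sense and antisense refer to the contig as assembled, which need not be the direction of the gene. All values below are normalized log2 signals. They rank groups within a probe but not probes against each other, since probes differ in brightness. Some probes of the array match more than 1 transcript, and whether that holds for these 11 was not tested.

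All 3 sense probes of contig02714 were highest in green-half seeds and lowest in dry seeds, with a second and lower maximum in brown seeds. For probe 0 the level was 9.65, 9.44 and 9.37 in the green-white seeds and 11.02, 9.94, 9.99 and 9.29 in the green-half seeds. It was 7.47, 6.99 and 6.55 in the green-black seeds, 7.85, 7.76 and 7.34 in the yellow seeds, and 8.52, 8.48, 8.65 and 7.84 in the brown seeds. In the dry seeds it was 4.64, 5.04, 4.39 and 5.08. Every dry array therefore lay below every other seed array for this probe, and the green-black arrays lay below all arrays of the 2 younger stages. Probe 1000 ran in parallel, with stage means of 9.69, 10.62, 7.49, 7.97, 8.91 and 5.12 for stages I to VI. Its dry arrays stood at 4.67, 4.61, 4.13 and 7.08, the last one being the array on slide 4. Probe 500, with stage means of 8.72, 9.47, 5.74, 6.75, 7.56 and 3.16, was well above background on only 1 of the 4 dry arrays (2.64, 0.88, 3.82 and 5.29), so its dry level is poorly measured.

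**Figure D1:**
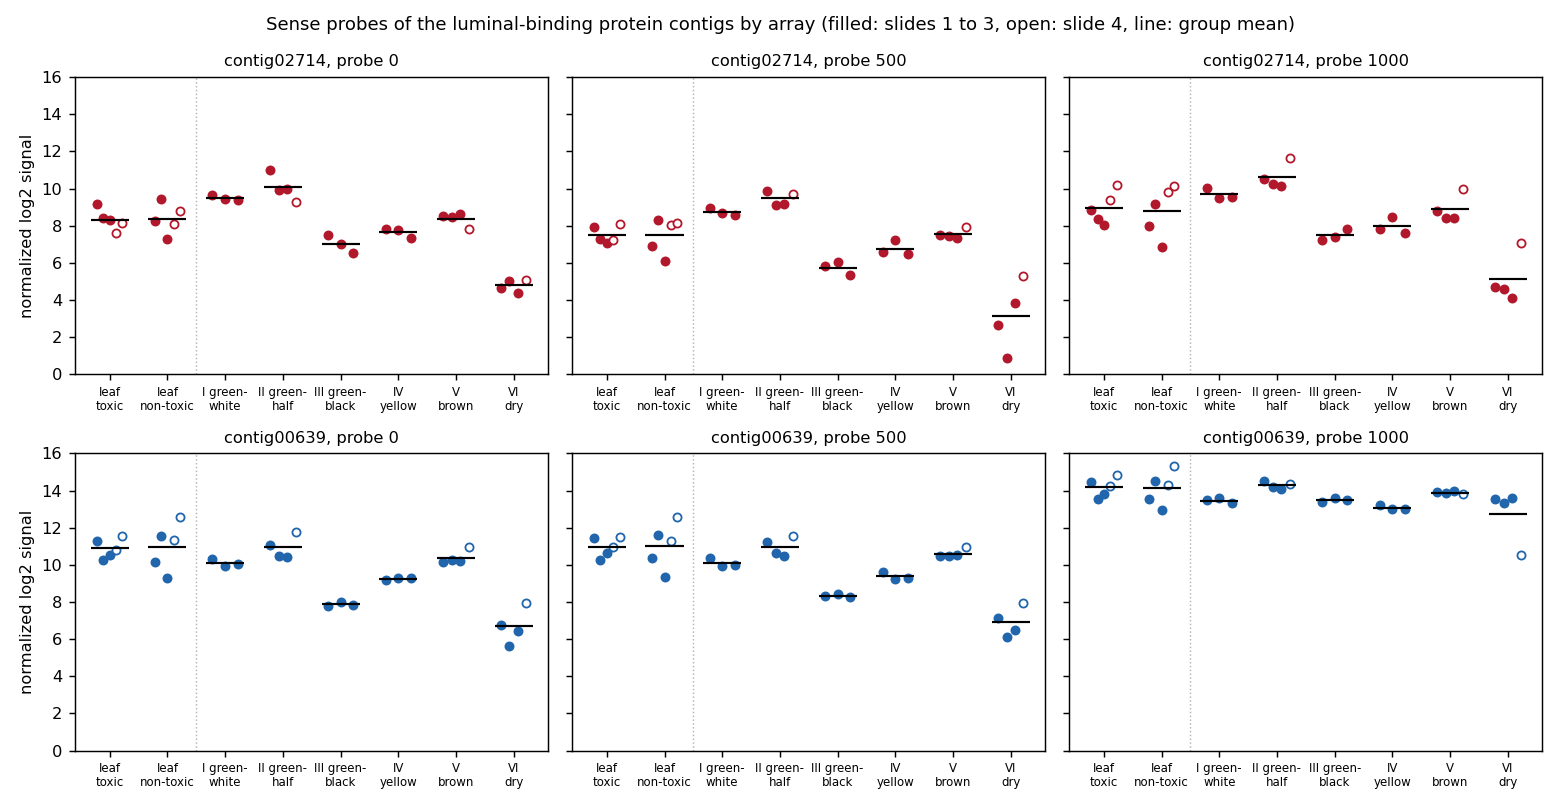
Normalized log2 signal (y axis) of the 3 sense probes of contig02714 and the 3 sense probes of contig00639 on each of the 31 arrays, by leaf group and seed stage (x axis), with filled points for slides 1 to 3, open points for slide 4 and a line at the group mean. In 5 of the 6 panels the points drop at green-black and again at dry seeds, while probe 1000 of contig00639 stays between 12.94 and 15.30 except for 1 dry array at 10.51.

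Probes 0 and 500 of contig00639 followed the same outline. For probe 0 the level was 10.34, 9.94 and 10.03 in the green-white seeds and 11.09, 10.48, 10.45 and 11.75 in the green-half seeds. It was 7.78, 8.02 and 7.83 in the green-black seeds, 9.20, 9.28 and 9.28 in the yellow seeds, and 10.16, 10.24, 10.22 and 10.95 in the brown seeds. In the dry seeds it was 6.74, 5.65, 6.45 and 7.94. For this probe the brown seeds overlapped the green-white seeds, whereas for probe 0 of contig02714 they lay below them. Against the green-half seeds, 3 of the 4 brown arrays lay lower for this probe too, and the fourth, on slide 4, overlapped them. Probe 500 had means of 10.10, 10.98, 8.33, 9.39, 10.60 and 6.93 for stages I to VI, and its lowest dry array was again replicate 2, at 6.10.

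Probe 1000 of contig00639, the brightest of the 11, shared this outline only in part and with smaller changes. On each of slides 1 to 3 it rose from green-white to green-half seeds and fell to green-black seeds. Its level was 13.48, 13.58 and 13.33 in the green-white seeds, 14.53, 14.19, 14.08 and 14.35 in the green-half seeds, and 13.41, 13.62 and 13.48 in the green-black seeds. In the yellow seeds it was 13.23, 13.03 and 12.98, and in the brown seeds 13.90, 13.88, 13.99 and 13.81. The dry seeds gave 13.54, 13.32 and 13.61 on slides 1 to 3 and 10.51 on slide 4. Apart from that array, the dry seeds were on a level with the green-white ones. The difference per array between probe 1000 and the mean of probes 0 and 500 was 3.36 and 3.33 at stages I and II, 5.40 at stage III, 3.76 and 3.40 at stages IV and V, and 5.94 at stage VI (SD 0.27, 0.44, 0.04, 0.06, 0.37 and 2.27). It varied over the 6 stages (permutation test of F with 100000 resamples, p = 0.0159, and p = 0.0304 when arrays were permuted within slides). Probe 1000 was set apart after the courses had been seen, so these p-values are no independent evidence. On these arrays the probes of 1 contig gave unequal courses, and values for contig00639 are given below with and without probe 1000.

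Over the 6 stages, 9 of the 11 probes varied in limma's F-test at an adjusted p under 0.05, against 42.6% of all probes. At the threshold of 1e-08, 1 of the 11 passed (probe 0 of contig02714, adjusted p = 4.56e-10), against 3.75% of all probes. The 2 probes that missed 0.05 were the dim antisense probe 750 of contig02714 (limma, adjusted p = 0.853) and the bright probe 1000 of contig00639 (0.12). Probe 1000 of contig00639 passed without the slide 4 arrays (limma, adjusted p = 0.0241).

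Step by step, the sense probes fell at the passages into the green-black and the dry stage, and no step in between or before passed the test. Between green-half and green-white seeds 0 of 11 probes were called by limma (4.03% of all probes, with 2.53% called higher, and 2 of the 11 at an unadjusted p under 0.05). The 6 sense probes differed by 0.57 to 0.93, and for 5 of the 6 the groups did not overlap, against 20.6% of all probes. Between green-black and green-half seeds 6 of 11 probes were lower, 5 of them sense probes, against 8.77% of all probes. Probe 0 of contig02714 was 8.31-fold lower in green-black seeds (log2 difference -3.05, SE 0.42, limma, adjusted p = 1.67e-05), and probe 0 of contig00639 was 8.38-fold lower (-3.07, SE 0.55, adjusted p = 0.000333). The other sense probes of contig02714 fell 13.3-fold (probe 500) and 8.81-fold (probe 1000), and probe 500 of contig00639 fell 6.25-fold. Probe 1000 of contig00639 differed by -0.79 (limma, adjusted p = 0.389), and by -0.94 (0.0335) with the log2 table that the authors deposited.

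In yellow minus green-black and in brown minus yellow seeds the sense probes differed by -0.42 to 1.37 and by 0.72 to 1.22. None of the 11 probes was called at either step, where 8.66% and 2.44% of all probes were, and 1 and 3 of the 11 had an unadjusted p under 0.05. The largest of these differences, 1.37 for probe 0 of contig00639 in yellow minus green-black seeds (limma, adjusted p = 0.165), was 1.26 to 1.45 within each of slides 1 to 3. It was called with slide as a block (0.0302) and without slide 4 (1.29, 0.0312).

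Between dry and brown seeds 8 of 11 probes were lower, 5 of them sense probes, against 9.84% of all probes. Probe 0 of contig02714 was 12.02-fold lower in dry seeds (-3.59, SE 0.39, limma, adjusted p = 1.6e-07), and probe 0 of contig00639 was 12.99-fold lower (-3.70, SE 0.51, adjusted p = 4.93e-06). On the 4 slides that held both stages these differences ran between -4.27 and -2.76 for the first and between -4.59 and -3.01 for the second. Between dry and green-white seeds 6 of 11 probes were lower, against 15.1% of all probes. Here contig02714 was 26.0-fold and 23.7-fold lower (probes 0 and 1000), and contig00639 was 10.6-fold and 9.02-fold lower (probes 0 and 500). Probe 500 of contig02714 was lower too (-5.56), with no fold given since 1 of its 4 dry arrays was well above background. The dry signal of contig02714 lay close to background. With another background correction (normexp) its probes 0, 500 and 1000 differed between dry and green-white seeds by -3.11, -2.68 and -2.92 in place of -4.70, -5.56 and -4.57. Probes 0 and 500 of contig00639 then differed by -2.71 and -2.58 in place of -3.41 and -3.17, so that the sizes of the fall in the 2 contigs came close to each other. Probe 1000 of contig00639 differed by -0.72 (limma, adjusted p = 0.353), and by 0.02 without slide 4.

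**Figure D2:**
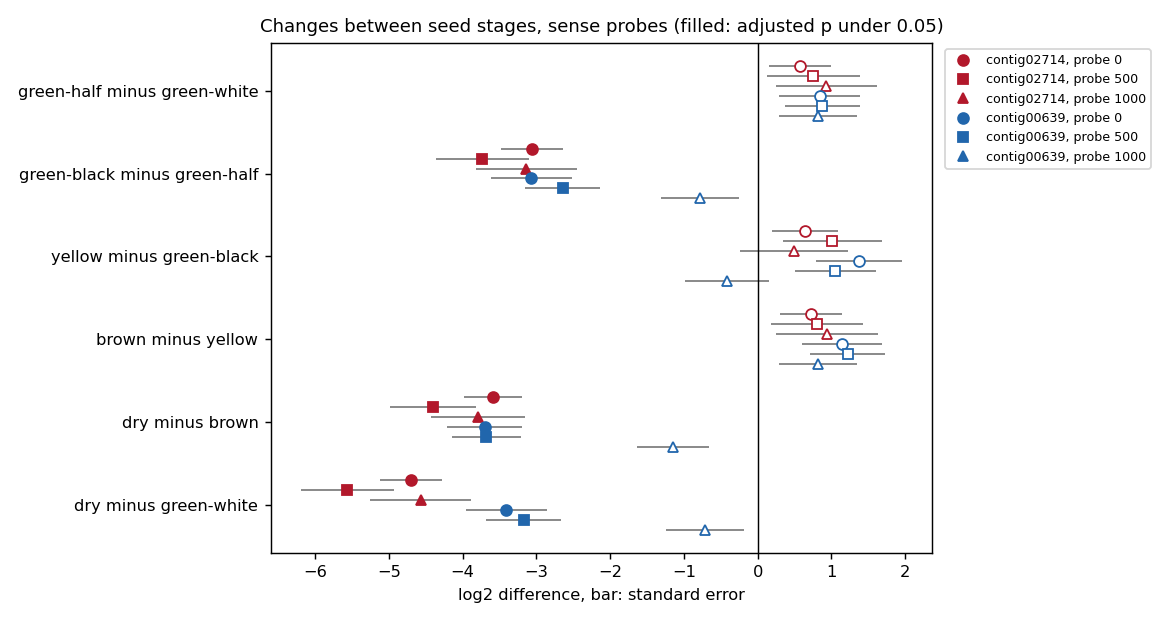
Log2 difference (x axis, bars show the standard error from limma) of the 6 sense probes at the 5 steps between neighbouring seed stages and between dry and green-white seeds (y axis), filled where the adjusted p was under 0.05. The filled points lie at green-black minus green-half, dry minus brown and dry minus green-white, between -5.56 and -2.64, and probe 1000 of contig00639 is open at each step.

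The antisense probes were of 2 kinds. Probe 1250 of contig02714, near the end of the contig, ran like the sense probes of the contig, with means of 8.05, 8.06, 5.43, 5.98, 6.68 and 3.76 for stages I to VI. It fell 6.19-fold in green-black against green-half seeds (-2.63, limma, adjusted p = 0.000146) and 7.56-fold in dry against brown seeds (-2.92, adjusted p = 5.42e-06), with 2 of the 4 dry arrays well above background. Probes 250 and 750 of contig02714 were well above background on 3 and 4 of the 31 arrays, and 15 of their values had to be imputed, so nothing is read from their courses. Probes 250 and 750 of contig00639 were dim, with stage means of 5.15 to 6.61 and of 4.44 to 5.56. Both were lower in dry than in brown seeds (-0.88, limma, adjusted p = 0.0135, and -1.03, 0.0112), calls that were lost with scaling to the 75th percentile (0.219 and 0.112). Whether antisense signal came from antisense transcripts was not tested.

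**Figure D3:**
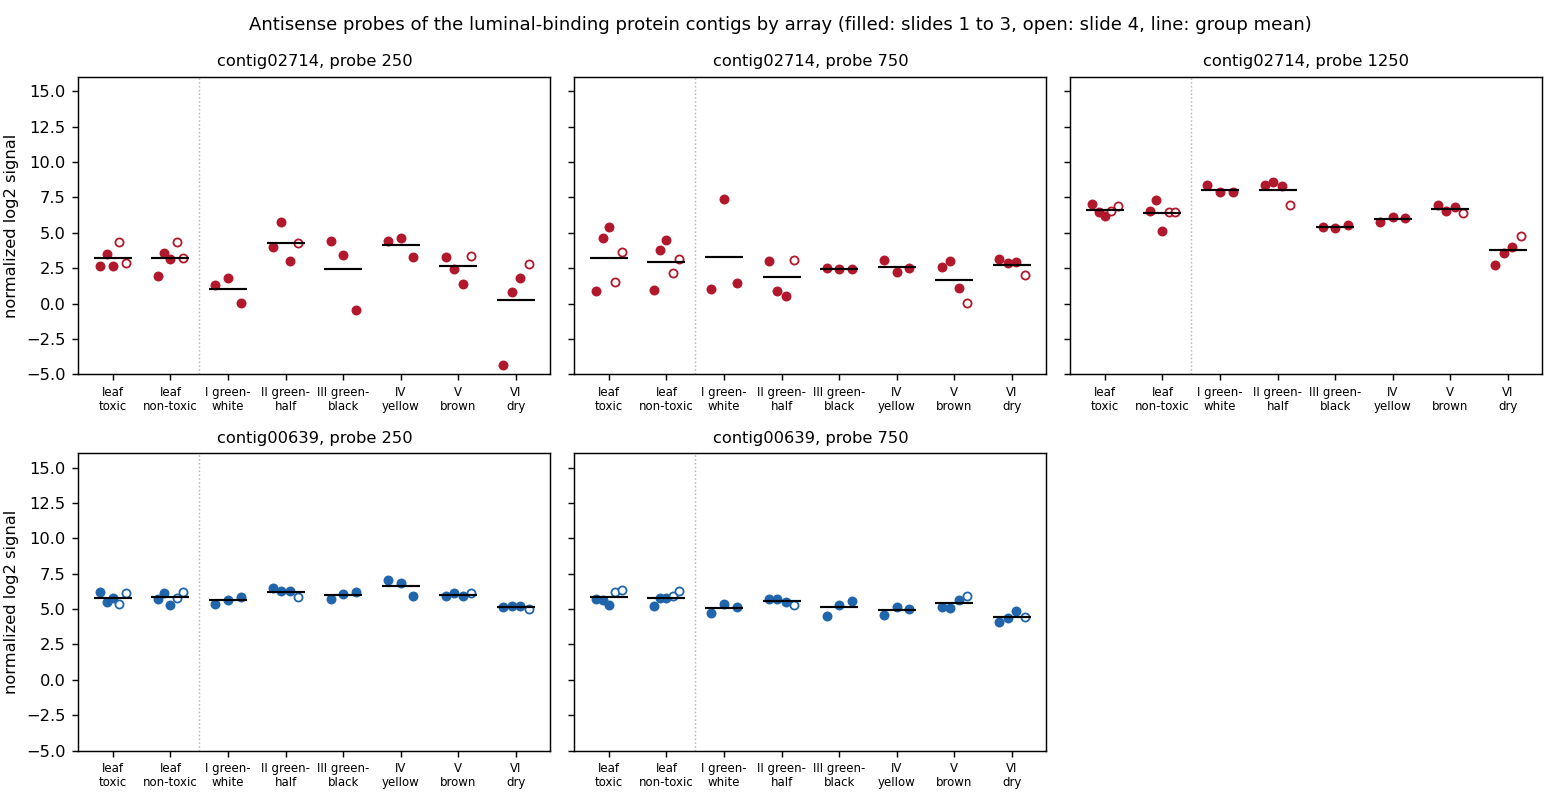
Normalized log2 signal (y axis) of the 5 antisense probes on each array, by leaf group and seed stage (x axis), with filled points for slides 1 to 3, open points for slide 4 and a line at the group mean. Probe 1250 of contig02714 drops at green-black (mean 5.43) and dry seeds (3.76), while probes 250 and 750 of contig00639 stay within group means of 4.44 to 6.61.

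In leaf, both contigs stood near the level of brown seeds in the setting used here. Whether the leaves came from the plant that bore the seeds is not stated. Tissue and plant can therefore not be told apart in leaf against seed. Toxic and non-toxic leaves carry different title codes, so toxicity and leaf source cannot be told apart either. Probe 0 of contig02714 was at 9.18, 8.39, 8.31, 7.63 and 8.12 in toxic leaves and at 8.25, 9.43, 7.27, 8.08 and 8.77 in non-toxic leaves. Probe 0 of contig00639 was at 11.30, 10.26, 10.54, 10.79 and 11.57 in toxic leaves and at 10.14, 11.58, 9.28, 11.32 and 12.55 in non-toxic leaves. The leaf arrays spread more widely than those of most seed stages, with an SD of 0.56 and 0.54 for these probes in toxic leaves and of 0.81 and 1.28 in non-toxic leaves. Set against dry seeds, leaf was higher for 10 of 11 probes (20% of all probes), by 11.8-fold for probe 0 of contig02714 (3.56, SE 0.33, limma, adjusted p = 1.11e-09) and by 18.9-fold for probe 0 of contig00639 (4.24, SE 0.42, adjusted p = 5.72e-09). The call for probe 1000 of contig00639 (1.41, adjusted p = 0.0069) was lost without slide 4 (0.32, 0.331) and without dry replicate 4 alone (0.67, 0.0939). That of the dim probe 250 of contig02714 (2.95) is not read, since none of the leaf and dry arrays was well above background for it. This call was lost with normexp background correction (0.06, limma, adjusted p = 0.695) and with the log2 table that the authors deposited (0.53, 0.163).

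Against the other stages the calls fell unequally on the 2 contigs. Leaf was lower than green-half seeds for 4 of 11 probes (13.9% of all probes), and these were all probes of contig02714, with a difference of -1.72 for its probe 0 (3.29-fold lower, limma, adjusted p = 0.000147), while probe 0 of contig00639 differed by -0.01 (0.989). Leaf was higher than green-black seeds for 6 of 11 probes (21.8%), by 1.34 for probe 0 of contig02714 (adjusted p = 0.00429) and by 3.05 for probe 0 of contig00639 (8e-06). Against green-white seeds 2 probes were lower (13.5%), both of contig02714, and 1 was higher (15.6%). With slide as a block, probes 500 and 1000 of contig02714 were called lower here as well (-1.57, limma, adjusted p = 0.0201, and -1.51, 0.000675, in place of -1.22, 0.0971, and -0.81, 0.345), as they were without slide 4. Against yellow seeds 3 were higher (18.5%), all of contig00639, and 1 was lower (16.2%). With slide as a block, probe 0 of contig02714 was called higher than in yellow seeds too (0.85, limma, adjusted p = 0.0406, in place of 0.69, 0.151). Against brown seeds none of the 11 was called, where 36.8% of all probes were, and none had an unadjusted p under 0.05. Their 6 sense differences ran from -0.05 to 0.54, with standard errors of 0.33 to 0.53. With the log2 table that the authors deposited, probes 0 and 500 of contig00639 were called higher in leaf than in brown seeds (0.81, limma, adjusted p = 0.0117, and 0.64, 0.0446). Antisense probe 250 of contig00639 was then called lower (-0.43, 0.0127), and the dim probe 750 of contig02714 higher (1.23, 0.0398).

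Ordered by the mean of the sense probes, contig02714 was highest in green-half seeds (10.05), then in green-white seeds (9.30), brown seeds (8.28), toxic leaves (8.27), non-toxic leaves (8.21), yellow seeds (7.46), green-black seeds (6.74) and dry seeds (4.36). In this order brown seeds overlapped toxic leaves, these the non-toxic leaves, and these the yellow seeds. Contig00639 was highest in green-half seeds (12.07), then in non-toxic leaves (12.05), toxic leaves (12.02), brown seeds (11.63), green-white seeds (11.22), yellow seeds (10.57), green-black seeds (9.90) and dry seeds (8.79), and the first 4 overlapped. No pair of neighbours in either order passed an exact two-sided permutation test after adjustment over the 7 pairs (lowest adjusted p = 0.1). The design limits this exact test, since before adjustment pairs of 3 arrays each cannot go below p = 0.1 and pairs of 3 against 4 cannot go below 0.0286, a value that 4 such pairs without overlap reached.

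Toxic and non-toxic leaves did not differ detectably. None of the 11 probes was called (0% of all probes), and none had an unadjusted p under 0.05, against 3.71% of all probes. The sense probes differed by -0.08 to 0.18 in toxic minus non-toxic leaves, with standard errors of 0.35 to 0.57.

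Within leaf the 2 contigs varied together from array to array. Over the 10 leaf arrays the sense means correlated with Pearson's r = 0.94 (permutation p = 4e-05) and Spearman's rho = 0.98 (permutation p = 2e-05), the single relation tested. Without the 2 arrays farthest from the median of contig02714 r was 0.94 (8 arrays), and over the 6 leaf arrays on slides 1 to 3 r was 0.97 (exact permutation p = 0.00694) and rho 0.94 (exact permutation p = 0.0167). As a description, 8 of the other 57831 probes (0.0138%) correlated with contig02714 in leaf at least as highly as contig00639 did, and 24 (0.0415%) with contig00639 at least as highly as contig02714 did, while the median over all probes was 0.04 and 0.06. Other ER folding contigs varied along with them, among them calreticulin (contig00650, r = 0.79 with contig02714 and 0.91 with contig00639), a lectin-like chaperone of glycoproteins, and a protein disulfide isomerase (contig01013, 0.86 and 0.92), which forms disulfide bonds. Of the 13 contigs of the ER list, 9 had r over 0.5 with contig02714 and 9 with contig00639, where 17% and 21.6% of all probes had. Of 10 other chaperones, which are not annotated to the ER, 3 and 5 had. The median was 0.63 and 0.67 over the ER list, and 0.06 and 0.12 over the other chaperones, whose values ran from -0.85 to 0.74 and from -0.85 to 0.82. Among the 9 ER contigs over 0.5, contig00819, contig00820 and contig00821 share a target. Sec61 gamma (contig00170), a subunit of the channel through which proteins enter the ER, ran the other way (-0.69 and -0.62). So did ER membrane protein complex subunit 8/9 (contig00231, -0.62 and -0.53). The 10 points share the array platform and, in part, a slide. The title code of each leaf array outside slides 1 to 3 resembles a code on slides 1 to 3 in letters and number. Whether such codes mark the same plant is not stated, so some of the 10 arrays may be repeats of a source. The permutation p-values over the 10 arrays treat each of them as a separate sample. Among the 6 leaf arrays on slides 1 to 3 no code recurs.

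Whether the 2 contigs followed the same course was tested on their difference per array, the mean of the sense probes of contig02714 minus that of contig00639. Only its changes are read, not its level. The difference was -1.92 at stage I, -2.02 at stage II, -3.16 at stage III, -3.12 at stage IV, -3.35 at stage V and -4.43 at stage VI. It changed over the stages (permutation test of F, 100000 resamples, p = 5e-05, and p = 0.00116 within slides). Without probe 1000 of contig00639 it was -0.80, -0.91, -1.36, -1.86, -2.22 and -2.46 (permutation p = 2e-05, and 5e-05 within slides). Both contigs thus had their drops at the same steps, while the signal of contig02714 lost ground to that of contig00639 over the stages. The split of single steps was less certain. In green-black minus green-half seeds the difference changed by -1.14 (exact two-sided permutation test, p = 0.0286, adjusted p = 0.0571 over 12 tests), and by -0.45 (p = 0.114) without probe 1000 of contig00639. Dry minus green-white gave -2.51 (exact p = 0.0571), and -1.65 (exact p = 0.0286, the smallest possible) without that probe. With all sense probes and normexp, dry minus green-white gave -0.90 (exact p = 0.0571), and dry minus brown gave 0.34 (exact p = 0.171) in place of -1.08 (exact p = 0.143). The part of the course that rests on the dry stage thus depended on the background correction.

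In leaf the difference was -3.75 in toxic and -3.83 in non-toxic leaves. It was lower in leaf than in stages I to V, and leaf minus seed gave -1.87 for green-white, -1.77 for green-half, -0.63 for green-black, -0.68 for yellow and -0.44 for brown seeds (exact permutation tests, adjusted p = 0.014, 0.012, 0.014, 0.021 and 0.024). Leaf minus brown seeds became -0.29 without slide 4 (exact permutation p = 0.0595) and -0.30 with the highest probe of each contig (exact permutation p = 0.425), with which leaf minus yellow seeds became -0.17 (exact permutation p = 0.629) and leaf minus green-black seeds turned to 0.74 (exact permutation p = 0.0385). Leaf minus dry seeds gave 0.64 (exact permutation test, adjusted p = 0.102), and the size and sign of this last change depended on the processing. It was 1.26 (exact p = 0.0119) without slide 4, 0.53 (exact p = 0.043) with scaling to the 75th percentile and 2.34 (exact p = 0.011) with the highest probe of each contig. It was -0.27 (exact p = 0.197) without probe 1000 of contig00639 and -0.74 (exact p = 0.000999) with normexp background correction. In dry seeds probe 500 of contig02714 was well above background on 1 of 4 arrays.

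**Figure D4:**
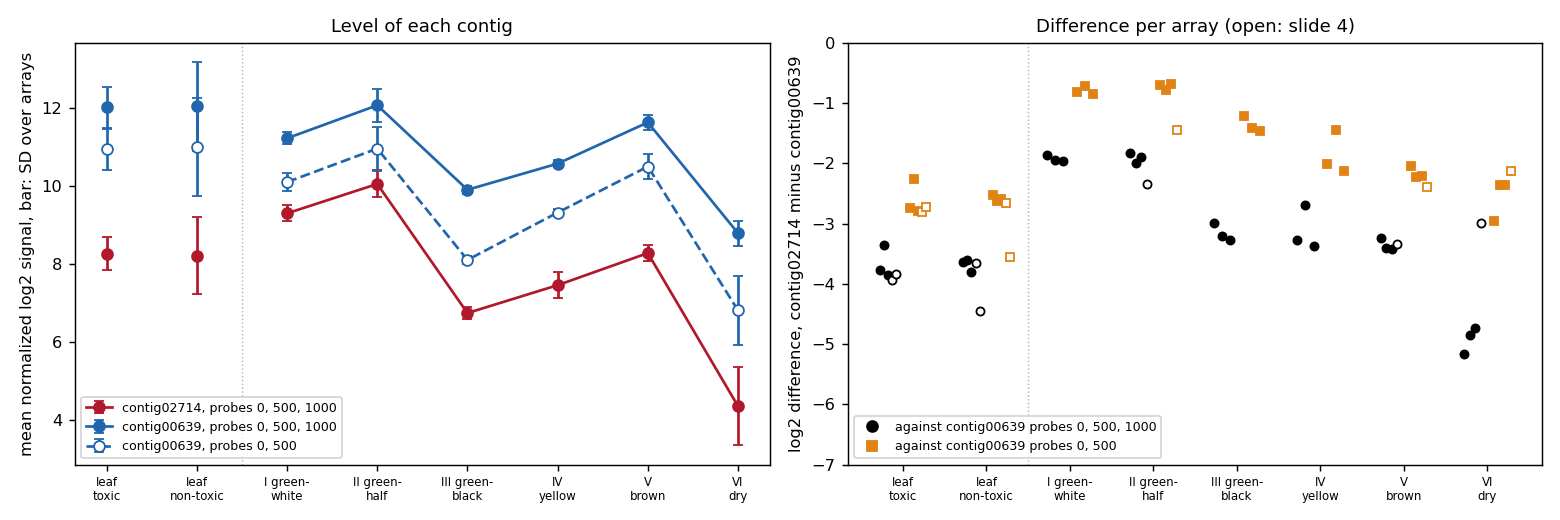
Left, mean normalized log2 signal of the sense probes of each contig by group (bars show the SD over 3 to 5 arrays), with contig00639 also drawn without its probe 1000. Right, the log2 difference per array, contig02714 minus contig00639, with open symbols for slide 4. In seeds its means run from -1.92 at stage I to -4.43 at stage VI, or from -0.80 to -2.46 without probe 1000.

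Set beside other genes of protein folding, much of the ER list was lower in dry than in green-white seeds by its brightest probes. Most of the other chaperones were higher. Each of these contigs is given by the probe that was brightest on average in seeds. The count for the ER list depended on this choice. With the mean over all probes of a contig fewer ER contigs were lower, as given below under the processing. Of 13 ER contigs, 8 were lower and 1 higher in dry than in green-white seeds (15.1% and 15.3% of all probes), with a median difference of -0.99 against 0.10 over all probes. Besides Sec61 gamma (-4.62, SE 0.32, limma, adjusted p = 2.54e-11) and calreticulin (-4.37, SE 0.40, adjusted p = 2.49e-09), the cyclophilin CYP19-4 (contig00263, -3.13), a peptidyl-prolyl isomerase, fell the most. The DnaJ homolog subfamily B member 11-like contig (contig00448), whose human counterpart is a co-chaperone of BiP, was lower too (-0.99, adjusted p = 0.0114). Higher in dry seeds was oligosaccharyltransferase subunit 2 (contig00533, 0.70, adjusted p = 0.0184), part of the enzyme that N-glycosylates new proteins. Of the 4 protein disulfide isomerase contigs, 1 fell (contig00820, -1.43), and contig00819, contig00820 and contig00821 share a target.

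In green-black against green-half seeds 5 of the 13 ER contigs were lower and 0 higher (8.77% and 5.09% of all probes), with a median of -0.75, while 1 of the 10 other chaperones was lower and 5 were higher (median 0.72). In dry against brown seeds 9 of the 13 ER contigs were lower and 0 higher (9.84% and 8.48% of all probes), with a median of -0.95, while 2 of the other chaperones were lower and 2 higher (median 0.05). Calreticulin had means of 13.83, 13.37, 11.18, 11.67, 11.90 and 9.46 at stages I to VI, lower in green-black than in green-half seeds (-2.18, limma, adjusted p = 0.000413) and in dry than in brown seeds (-2.44, 1.82e-05).

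Of the 10 other chaperones, 7 were higher and 2 lower in dry than in green-white seeds (median 1.26), where 2 of the 7 (DnaJ contig00640 and contig00641) share a target. Higher were an HSP83-like contig (contig00757, 6.79, SE 0.79, limma, adjusted p = 1.6e-07), a cytosolic HSP90 chaperone, and an HSP70 (contig00782, 5.27, adjusted p = 1.17e-08). BAG6 (contig00770, 5.25) and a mitochondrial small heat shock protein (contig00455, 4.37) were higher too. Lower were a chloroplastic DnaJ-like contig (contig00372, -6.04) and another HSP70 (contig01138, -3.23). HSP70 contig01138 had means of 16.93, 16.35, 14.92, 15.61, 15.98 and 13.70 at stages I to VI. Like the means of the BiP sense probes, these fell at the green-black stage, had a second maximum in brown seeds and were lowest in dry seeds. Its maximum was at stage I, as for calreticulin, whereas the sense probes of the BiP contigs were highest in seeds at stage II. The 2 HSP70 contigs thus went opposite ways in dry seeds.

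**Figure D5:**
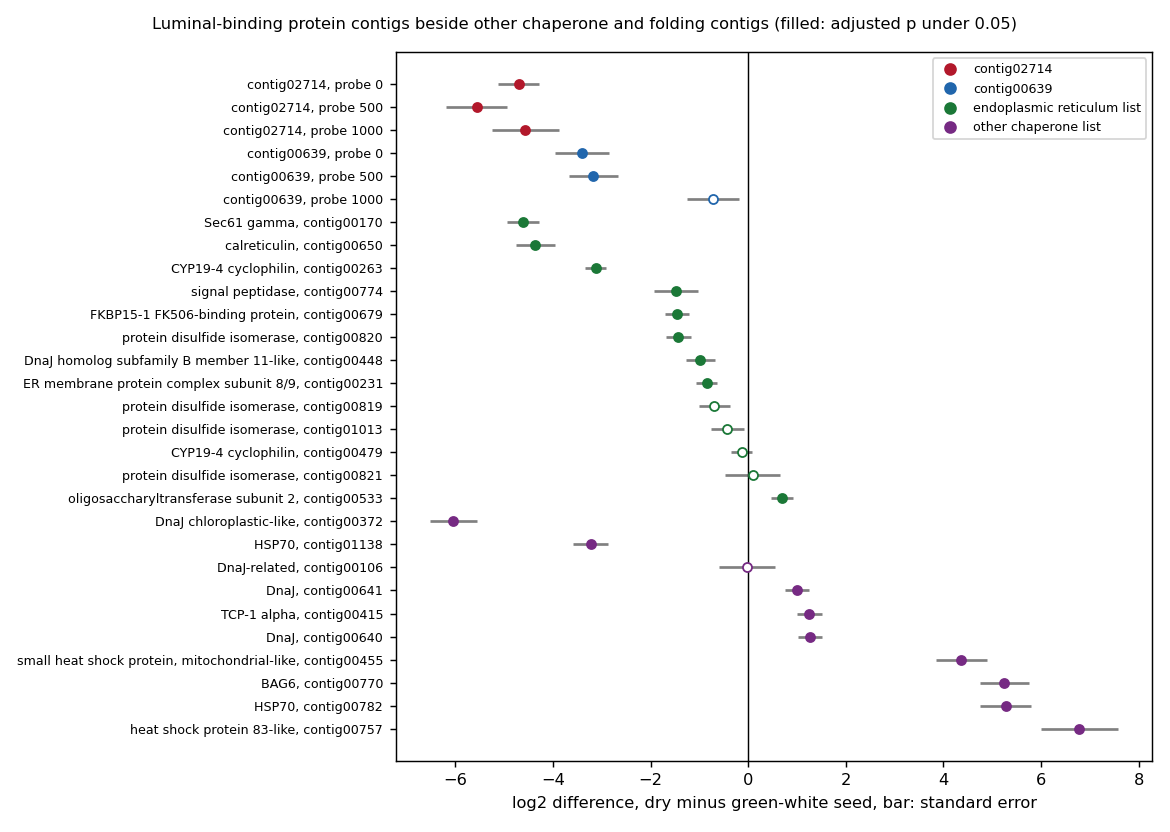
Log2 difference between dry and green-white seeds (x axis, bars show the standard error from limma) for the sense probes of contig02714 and contig00639, the 13 contigs of the ER list and the 10 other chaperones (y axis), filled where the adjusted p was under 0.05. Of the BiP probes, 5 at -5.56 to -3.17 lie with Sec61 gamma, calreticulin and CYP19-4 on the left, probe 1000 of contig00639 is open at -0.72, and contig00757, HSP70 contig00782 and BAG6 lie on the right at 5.25 to 6.79.

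By Pearson's r over the 31 arrays, the contigs whose probe was most like contig02714 were contig10120 (0.95), contig04691 (tryptophan synthase, 0.94), contig00604 (phosphoserine aminotransferase of serine synthesis, 0.94), contig07136 (0.93) and contig18891 (0.92). Those most like contig00639 were contig06384 (0.95) and contig05911 (0.94), both annotated as phosphoenolpyruvate carboxylase, contig04057 (0.95), contig03699 (0.93) and contig01703 (adenosine kinase, 0.93). The 2 sets of 5 had no contig in common. These correlations are descriptions over arrays that share plants and slides.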

How the data were processed

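Labelled cRNA of 21 seed and 10 leaf samples had been hybridized to Agilent 8x60K arrays and scanned by the authors. Per the submitters' processing notes the scans were read with Agilent Feature Extraction 10.5.1.1. The deposited intensity values are linear signals less a spatially detrended background, and arrays are not yet brought to one scale. A table of normalized log2 values per probe, which the authors deposited too, served here as an alternative. Gene annotation came from tables of the study as far as read (1482 of 19838 contigs) and from RefSeq. No sequences were used here.

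From the intensities, control spots and non-uniform outlier spots were left out, replicate spots were averaged, and values at or below 0 were treated as missing. Missing log2 values were filled from the 10 nearest probes, and all 31 arrays were quantile normalized together. Of the 341 values of the 11 probes 15 were imputed, none on a sense probe. In R 4.3.3, limma 3.58.1 fitted a mean for each of the 8 groups, without a slide term, and Benjamini-Hochberg adjustment ran over all 57842 probes, with calls at 0.05 and also at 1e-08. Differences between the contigs were tested by exact permutation or by 100000 resamples. The fit was checked on simulated data. The number of arrays limits the precision.

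Groups followed the labels. The label green-half stands for the stage called green-brown in the methods. Replicate numbers were given in order and coincide with slides, and pair no plants. Deviations from the group means correlated between arrays of one slide with a mean r of 0.11, 0.05 and 0.17 on slides 1 to 3 and 0.43 on slide 4. Alternatives were slide as a block, leaving out slide 4 or each array, seed arrays alone, scaling to the 75th percentile, normexp (offset 50), a filter on dim probes (well above background on at least 3 arrays), the deposited log2 table, other probe rules and, added after seeing the data, the processed signal of the scanner software and contig00639 without probe 1000.

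Named were all 11 probes, the contigs of the lists, and the 5 contigs most correlated with each member. The members and lists were chosen with earlier results of these data known. The seed markers contig10678, contig13681, contig12313 and contig11740 and the HSP70 contig01138 come from tables that the study chose on these arrays and are no independent evidence.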

Additional observations from a re-analysis of the deposited data

Results flagged for a closer look

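Among 55 groups of 4 or 5 arrays of the 11 probes, 3 held an array that lay far from the others by Dixon's critical value, where chance gives about 1 in 20. All 3 arrays lay on slide 4. Brown replicate 4 stood at 10.95 for probe 0 of contig00639, against 10.16 to 10.24 on the other 3 brown arrays. The same array stood at 10.98 for probe 500 of contig00639, against 10.46 to 10.51. Dry replicate 4 stood at 10.51 for probe 1000 of contig00639, against 13.32 to 13.61 on the other 3 dry arrays, and its probes 0 and 500 were the highest of the 4 dry arrays (7.94 and 7.96).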

How the results depend on the processing

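Counts of calls over the 11 probes were 9 for the seed course and 20 of 66 for the steps between stages. Leaf against seed had 27 of 66, and toxic against non-toxic leaf had 0. Over all probes, 42.6% were called for the seed course and 2.44% to 30.5% at the single steps. In leaf against each seed stage 29.1% to 39.1% of all probes were called, so that total is not read as a result about these contigs. At a threshold of 1e-08 the counts were 1, 1, 3 and 0. The lists of 13 ER and 10 other chaperones then kept 3 and 1 lower contigs of 8 and 2. With the deposited log2 table, leaf against seed had 43 calls, for which no share over all probes was computed. With the mean over all probes of a contig, the ER list had 3 lower contigs. With slide as a replicate block the counts were 9, 22, 29 and 0, the test of the contig difference gave permutation p = 0.00116, and 6 of the 143 tests of single probes moved across the threshold (5 gained, 1 lost). Leaving out 1 array at a time gave 8 to 9, 20 to 21, 25 to 29 and 0 calls, 7 to 9 and 2 lower contigs in the lists, and permutation p = 1e-05 to 0.00034 for the contig difference.

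Among tests called at 0.05 in the setting used here or in the alternative, the sign turned in 3 cases. Probe 750 of contig00639 in leaf minus green-black seeds became -0.010 (limma, adjusted p = 0.983) with scaling to the 75th percentile, which moved the median of all probes in that comparison by -0.42. The contig difference in leaf minus green-black seeds became 0.74 (exact permutation p = 0.0385) with the highest probe of each contig, which for contig00639 is probe 1000, and in leaf minus dry seeds -0.74 (exact permutation p = 0.000999) with normexp. The sign also turned, with no call on either side, for 27 of the 143 tests of single probes in at least 1 alternative other than leaving out single arrays, and for 2 changes of the contig difference, dry minus brown seeds (0.34 with normexp) and leaf minus dry seeds (-0.27 without probe 1000 of contig00639). The filter on dim probes moved 0 of 143 tests across the threshold, the processed signal 2, normexp 4, leaving out slide 4 gained 4 and lost 3, and the 75th percentile gained 2, lost 6 and turned 1. In green-black against green-half and dry against brown seeds, the calls of probes 0 and 500 of both contigs held in each of these, at the 0.05 threshold. Signal over background limits the dry level of contig02714, since its probe 500 was well above background on 1 of 4 dry arrays.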

Other observations

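Most of the storage protein and oleosin contigs taken as seed markers rose at the step before that at which the BiP contigs first fell. Of 6 such contigs, 5 were higher in green-half than in green-white seeds (2.53% of all probes), with a median of 3.45 against -0.06 over all probes, among them an oleosin (contig12313, 5.22, limma, adjusted p = 1.78e-06), a coat protein of oil bodies, and an 11S globulin (contig10678, 5.99, adjusted p = 2.43e-06), a storage protein. In green-black minus green-half seeds, where 5 of the 6 sense probes of the BiP contigs fell, 0 of the 6 were called by limma (4 at an unadjusted p under 0.05), with a median of 0.98. In dry minus brown seeds 2 of the 6 fell (9.84% of all probes), vicilin (contig00303, -4.43, adjusted p = 0.000242) and the 11S globulin (-3.16, adjusted p = 0.000413), both storage proteins, while oleosin contig12313 differed by -0.11 (0.937). That these markers move differently from the BiP contigs was not tested as a difference. Contig12313 and contig10678 are among the 4 of these 6 markers that come from tables which the study chose on these arrays. The calls of those 4, set beside the share over all probes, are therefore no independent evidence.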
